A study of Mus musculus with 10 samples.

Results

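The mitosis and spindle genes are 44 mouse genes that act when a cell divides. They were chosen by name from textbook knowledge of mitosis, with earlier results of these data known. A gene was measured where at least 1 probe set of the array is annotated with its symbol alone, and 43 of the 44 were measured, among 14988 genes tested. Cyclin B1, Ccnb1, had no such probe set and has no value here. All 43 measured members passed the filter on low values (a log2 level of 5 or more on at least 2 of the 10 arrays), so none was lost to it. The samples are whole lungs of ICR mice at postnatal day 14 (P14) or 29 (P29). Pups were mixed within hours of birth and assigned at random to room air or to 80% oxygen for 14 or 29 days, a treatment that gives rodents a lung disease resembling bronchopulmonary dysplasia of preterm infants. Dams moved daily between the exposures. At each age there were 2 room-air arrays (titled WT) and 3 hyperoxia arrays (titled BPD), each an Affymetrix expression array of total RNA. No genotype differs between the groups. The labels do not say whether the arrays of a group came from separate animals, so p-values reflect only how far these samples scatter, which may be a technical scatter.

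Mitosis is run by a small set of kinases and the machines they switch on. Cdk1 bound to cyclin A or B starts it, condensins fold the chromosomes, kinetochores tie each chromosome to spindle microtubules, and a checkpoint holds the cell until all are tied. The anaphase promoting complex then marks cyclin and securin for destruction, the chromatids part, and the cell is pinched apart at the midzone of the spindle. Most of these genes are transcribed late in the cell cycle and are low in resting cells, so in a tissue their RNA is widely read as a mark of dividing cells. The mouse lung forms most of its alveoli in the first weeks after birth, when its cells still divide, and division slows as the lung matures. In whole-lung RNA a larger share of dividing cells and more RNA per dividing cell cannot be told apart.

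Levels below are the deposited log2 values of the brightest probe set of each gene, and differences are log2 fold changes ± SE from limma, with p-values adjusted by Benjamini-Hochberg over all 14988 genes and a threshold of 0.05. The 43 members had their highest levels in P14 hyperoxia and their lowest in P29 room air. The median level over the members was 7.86 and 8.22 on the arrays of P14 room air, 8.49, 8.81 and 8.64 in P14 hyperoxia, 6.36 and 6.07 in P29 room air, and 7.96, 8.01 and 7.95 in P29 hyperoxia. The P29 room-air arrays stood far below the other 8, while P29 hyperoxia lay within the range of P14 room air. On the same arrays the median over all genes tested was 8.01 to 8.09 in room air and 8.14 to 8.23 in hyperoxia. Ordered by group mean, 23 members ran P14 hyperoxia, P29 hyperoxia, P14 room air, P29 room air, and 15 ran P14 hyperoxia, P14 room air, P29 hyperoxia, P29 room air. Another 4 (Ccnb2, Aurkb, Bub1b and Racgap1) had P14 room air first and P29 room air last. Foxm1 alone had both room-air groups above both hyperoxia groups. The middle places of this order were not firm. The 3 P29 hyperoxia arrays lay all above both P14 room-air arrays for 13 members (against 41.1% of all genes), all below them for 15 (against 31.8%), and the arrays overlapped for the other 15.

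**Figure D1:**
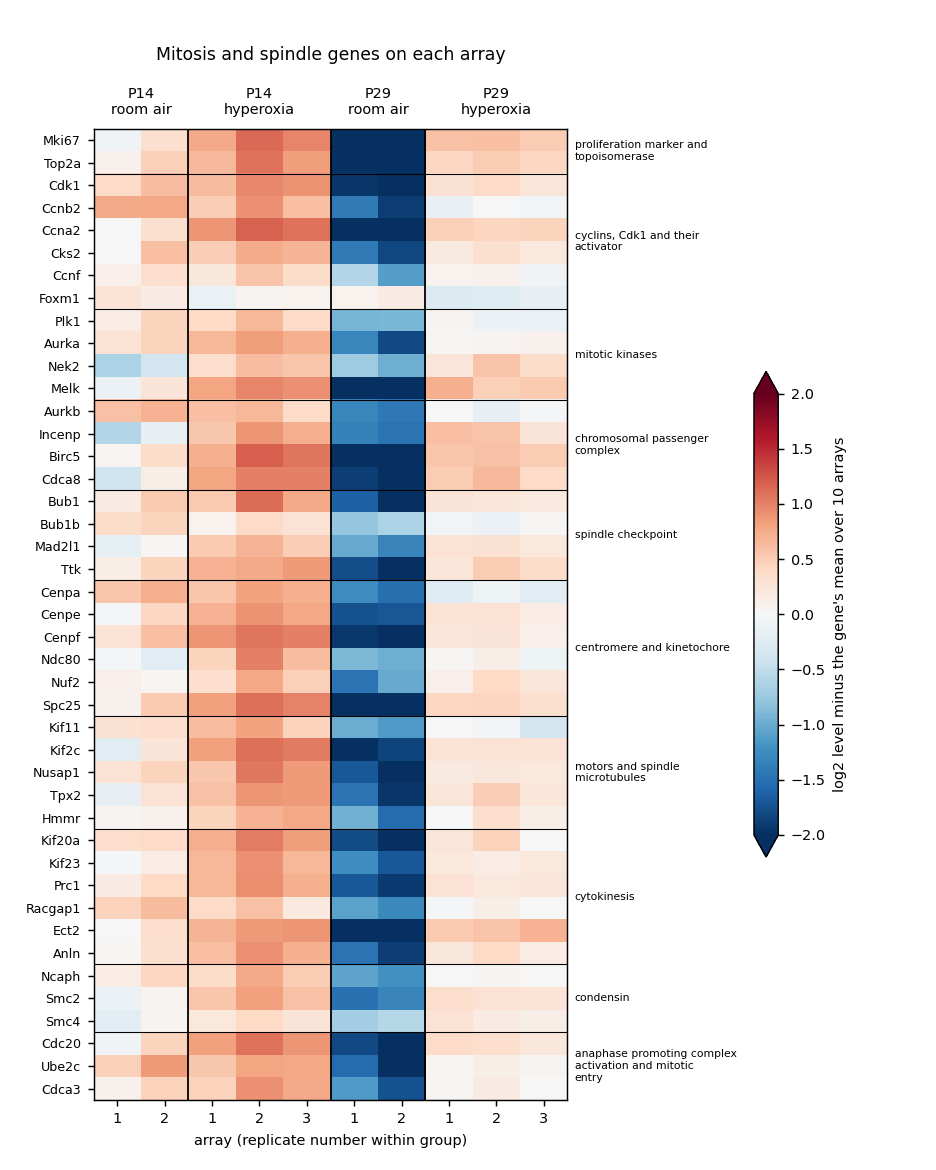
Colour gives the log2 level of each member (vertical axis, grouped by role) on each of the 10 arrays (horizontal axis, by group and replicate number), minus the gene's mean over the 10 arrays, with colours clipped at -2 and 2. The 2 P29 room-air columns are blue for every member but Foxm1, and the P14 hyperoxia columns are the reddest.

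The 8 lung markers, from surfactant protein C to elastin, read between 9.94 and 15 on every array, so the labelled tissue was present throughout, but some moved with the groups. Elastin (Eln) and the collagen gene Col1a1 had the direction of the members at P29, where they were higher in hyperoxia by 2.43 ± 0.14 (adjusted p = 4.14e-07) and 0.70 ± 0.11 (adjusted p = 0.000245), and with age in room air, where both were lower at P29 and Eln changed by -3.02 ± 0.16 (adjusted p = 1.62e-07). At P14 Eln did not pass (-0.36 ± 0.14 (adjusted p = 0.052)). The alveolar type II gene Sftpb had hyperoxia differences of -1.55 at P14 and -1.74 at P29, and the endothelial gene Pecam1 of -0.88 and -1.32, all past the threshold. The part of such shifts in the members' differences was not tested. Over the genes tested, each by its brightest probe set, the correlation of arrays was 0.993 to 0.996 within groups and 0.935 to 0.983 between them. The excess of 3' over 5' signal on the actin control probes (log2), a sign of RNA integrity and labelling, moved with oxygen: it was 0.429 ± 0.158 (SD, n = 2) in P14 room air, 1.69 ± 0.457 (n = 3) in P14 hyperoxia, 0.627 ± 0.156 (n = 2) in P29 room air and 1.81 ± 0.079 (n = 3) in P29 hyperoxia. Sex-linked transcripts showed that the arrays differ in sex. Xist was at 6.63 to 7.13 on all 5 P14 arrays and on replicate 1 of P29 hyperoxia, with Y-linked genes at a mean of 7.68 to 8.71. Both P29 room-air arrays and replicate 2 of P29 hyperoxia had the opposite pattern, with Xist at 12.5 to 12.7 and Y-linked genes at 3.47 to 4.04. Replicate 3 of P29 hyperoxia had both (Xist 11.9, Y-linked mean 7.71). In room air age and sex therefore cannot be told apart, and at P29 sex was matched to room air only on hyperoxia replicate 2.

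At P14, after 14 days of exposure, mitosis RNA was modestly higher in hyperoxia. Of the 43 members, 29 were higher than in room air at P14, where 32.3% of all genes tested were, and 0 were lower, where 22.8% of all genes were. The other 14 did not pass the test. The median over the members was 0.50 on the log2 scale, or 1.41-fold, against 0.04 for all genes. A 2-fold rise was passed by 3 members, Incenp, Cdca8 and Nek2, and by 3.94% of all genes. Dimmer probe sets of these 3 that passed the filter did not reach it. They read 0.39, 0.54 and -0.66 for Incenp, 0.55 and 0.29 for Cdca8, and 0.74 for Nek2. The 3 hyperoxia arrays lay above both room-air arrays for 31 members, where 39.6% of all genes did so, and below them for Foxm1, where 31.7% did. The 11 members whose arrays overlapped were Ccnb2, Cks2, Ccnf, Plk1, Aurkb, Bub1, Bub1b, Cenpa, Racgap1, Ncaph and Ube2c. The P14 count changed with 1 array and with the RNA integrity measure as a term. Without replicate 1 of P14 room air 15 members were higher, and 3556 of 14988 genes instead of 4838. With the actin 3' excess of each array as a term in the limma fit 0 members passed (9 at an unadjusted p under 0.05), and 812 of all genes were higher. The members' median was then 0.45. The actin term moved with oxygen, and calls were lost over all genes as well. Without that term, 31 members were higher and 1, Foxm1, lower at an unadjusted p under 0.05. All 5 arrays of this age had the same sex pattern.

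At P29 the contrast was far larger. Hyperoxia lungs were higher for 42 of 43 members, where 34.2% of all genes were higher, and lower for 1, Foxm1, where 25.6% of all genes were lower. The members' median was 1.89, or 3.71-fold, against 0.04 for all genes. At least 2-fold rises were found in 36 members and in 4.98% of all genes. For no member did the arrays of the 2 groups overlap: the 3 hyperoxia arrays were all above both room-air arrays for 42 members (41.2% of all genes) and all below them for Foxm1 (33.1%). With replicate 2, the array whose sex matched room air, as the only P29 hyperoxia array, the members' median was 1.95. With the actin term 39 members were higher at a median of 1.75, where 1628 of 14988 genes were higher instead of 5119.

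The effect of hyperoxia was itself larger at P29 on these arrays. All P14 arrays had a sex pattern opposite to that of P29 room air, and exposure lasted 14 days at P14 and 29 days at P29. Age, sex and length of exposure therefore cannot be told apart in this contrast. The difference of the 2 effects (P29 minus P14) passed the test for 39 of 43 members, all towards a larger value at P29, where 11.0% of all genes passed in that direction and 11.6% in the other. At an unadjusted p under 0.05 the counts were 40 and 0. The median difference was 1.37 on the log2 scale, against -0.00 for all genes. It was 1 or more on that scale, that is at least 2-fold, in 30 members and in 2.28% of all genes. The 4 members that did not pass were Foxm1 (-0.12 ± 0.12 (adjusted p = 0.526)), Ndc80 (0.13 ± 0.21 (adjusted p = 0.701)), Nek2 (0.21 ± 0.18 (adjusted p = 0.447)) and Smc4 (0.44 ± 0.15 (adjusted p = 0.0549)). Across the 43 members the effects at P14 and P29, which share no arrays, had a Pearson correlation of 0.599 and a Spearman correlation of 0.589, given as a description since the members share every array. Scaling each array to its 75th percentile changed the balance over all genes, from 4838 higher and 3412 lower to 3888 higher and 4759 lower at P14 and from 5119 and 3831 to 3834 and 5479 at P29. Under that scaling 25 members were higher at P14 and 42 at P29.

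**Figure D2:**
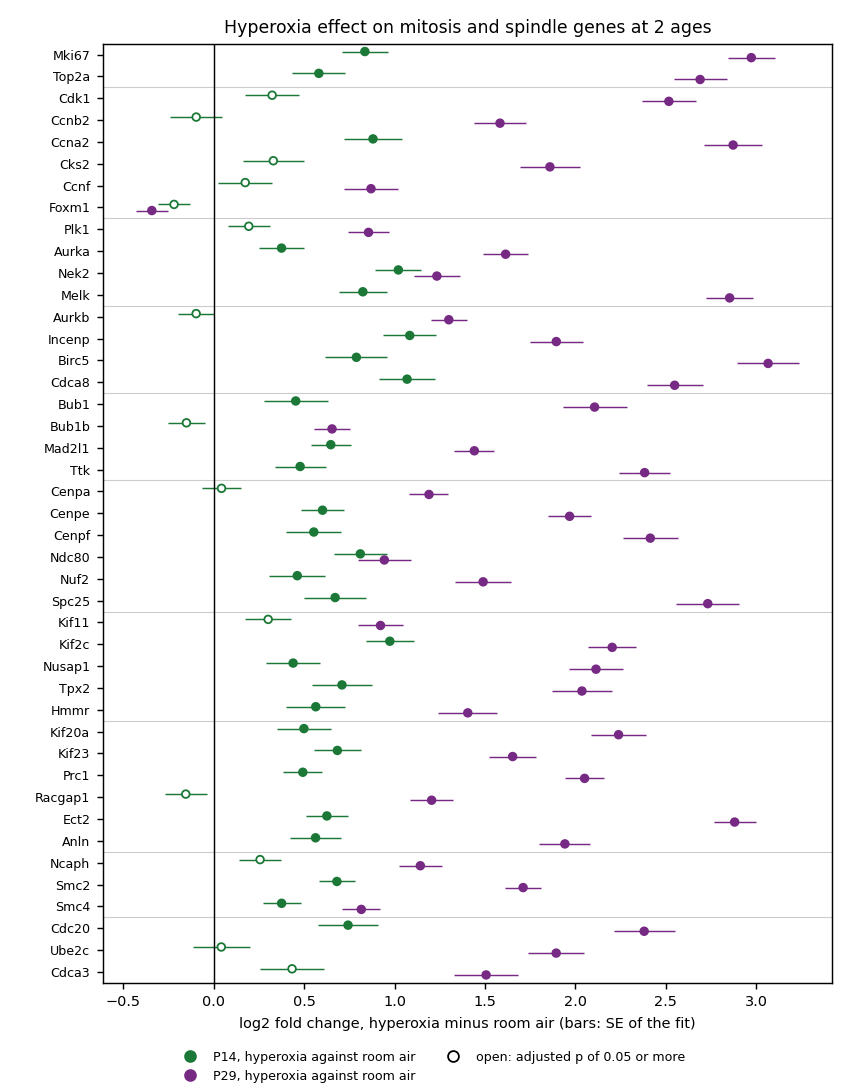
Points give the log2 fold change of hyperoxia against room air (horizontal axis) for each member (vertical axis, lines divide the roles) at P14 (green) and P29 (purple), with bars of 1 SE and open points for an adjusted p of 0.05 or more. The P29 point lies to the right of the P14 point for every member except Foxm1, whose points lie at -0.22 and -0.34.

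Between P14 and P29 the members fell steeply in room air and mildly in hyperoxia. In room air 41 of 43 were lower at P29, where 19.1% of all genes were lower and 22.2% higher, with a median change of -1.92, or 3.79-fold. At least 2-fold falls were found in 39 members and in 3.66% of all genes. The 2 members that did not pass were Foxm1 (-0.10 ± 0.10 (adjusted p = 0.436)) and Nek2 (-0.33 ± 0.14 (adjusted p = 0.0803)). Both P29 room-air arrays lay below both P14 room-air arrays for all 43, Foxm1 included, where 33.0% of all genes did so.

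In hyperoxia 33 members were lower at P29 and 0 higher, where 11.7% of all genes were lower and 15.4% higher, and the median change was -0.52, or 1.43-fold. No fall reached 2-fold. The largest was that of Cenpa (-0.89 ± 0.10 (adjusted p = 8.75e-05)) and the smallest change that of Smc4 (-0.10 ± 0.09 (adjusted p = 0.467)). The arrays of the 2 ages did not overlap for 38 members, all below at P29, where 20.0% of all genes were below. The count of 33 lower by the test depended on single arrays. It was 18 without replicate 2 of P14 hyperoxia, where 1320 of 14988 genes were lower instead of 1749. Without replicate 3 of P29 hyperoxia it was 21, where 1399 genes were lower. With replicate 2 as the only P29 hyperoxia array the members' median change was -0.43. Since the difference of the 2 age changes is the same quantity as the difference of the 2 hyperoxia effects, the 39 members named by that test are those whose fall was smaller in hyperoxia.

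**Figure D3:**
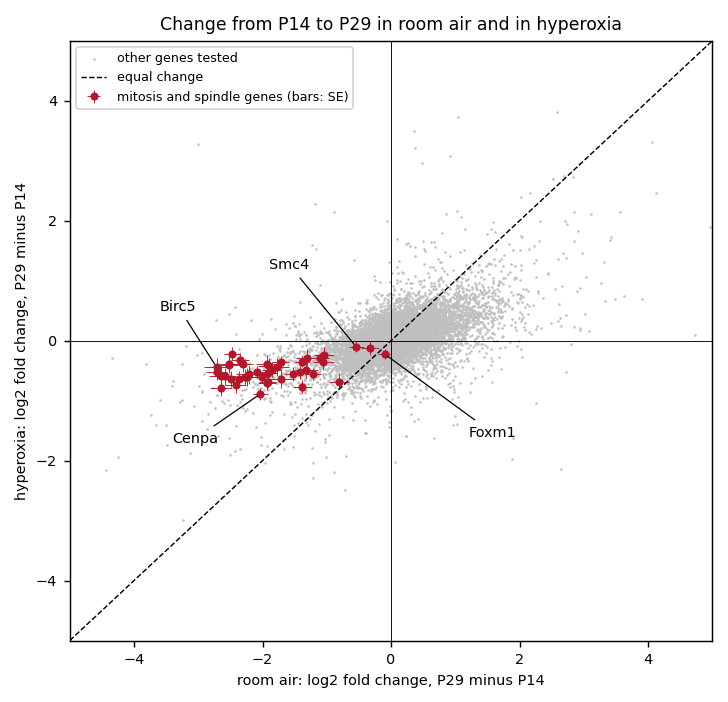
Each red point is a member, placed by its log2 fold change from P14 to P29 in room air (horizontal axis) and in hyperoxia (vertical axis) with bars of 1 SE, over the other genes tested in grey (4 of them lie outside the axes) and a dashed line of equal change. Members spread from -2.72 (Birc5) to -0.10 (Foxm1) across and only from -0.89 (Cenpa) to -0.10 (Smc4) down, and 42 of the 43 lie above the line.

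Many late cell-cycle genes carry 2 short promoter elements, which were searched for in RefSeq promoter windows (mouse build GRCm38.p6, 250 bases before to 50 bases after an annotated start). One is the cell cycle genes homology region (CHR, searched as TTTGAA or TTTAAA on either strand), through which the DREAM complex keeps such genes silent in resting cells and MuvB with B-Myb and FoxM1 activates them in dividing ones. The other is the CCAAT box (searched as CCAAT on either strand), bound by NF-Y. The table held 38 windows of 36 of the 43 measured members. Ccna2, Foxm1, Aurkb, Incenp, Tpx2, Kif20a and Smc4 had no entry. A CHR match lay in 30 of 38 windows, or 78.9%, against 19.8% of the 15231 windows of genes tested and 27.6% of all 32851 windows. A CCAAT match lay in 76.3%, against 36.9% of the windows of genes tested and 37.4% of all. Both lay in 68.4%, against 7.56% and 10.7%. The E2F site of replication genes (TTTCGCGC or TTTGGCGC on either strand) lay in 2.63%, against 1.38% and 0.813%. Windows of 1 gene may overlap, and Prc1 and Ect2 have more than 1.

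CHR matches lay close to the start. They began in the first 50 bases from the start onward in 19 of 38 member windows (18 members), against 2.09% of windows of genes tested, and in the 50 bases before it in 26.3% (9 members), against 3.25%. CCAAT matches lay farther upstream, in 19 of 38 member windows within the 50 bases before the start (10.1% of windows of genes tested) and in 47.4% within the 50 before those (14.1%). The 100 bases before the start are printed for 6 members described in full below that have a single window and a CHR match within 50 bases upstream, chosen after the matches were seen, to show how the elements sit together. Prc1, also described in full, has 2 overlapping windows with a CHR match 5 or 30 bases before the start and is not printed. Each runs 5′ to 3′ on the strand of the gene, with CHR (TTTGAA or TTTAAA, or their reverse complements) and CCAAT matches (on the other strand ATTGG) in capitals.
Cdk1 (chr10:69352913-69353012, minus strand): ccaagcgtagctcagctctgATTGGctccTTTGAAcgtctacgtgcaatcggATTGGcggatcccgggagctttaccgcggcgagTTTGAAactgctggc
Top2a (chr11:99024190-99024289, minus strand): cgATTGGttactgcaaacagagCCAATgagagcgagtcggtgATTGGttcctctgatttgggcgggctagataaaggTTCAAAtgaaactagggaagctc
Plk1 (chr7:122159335-122159434, plus strand): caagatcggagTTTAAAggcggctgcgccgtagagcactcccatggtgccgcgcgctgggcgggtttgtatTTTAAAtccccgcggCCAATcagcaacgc
Cenpa (chr5:30666786-30666885, plus strand): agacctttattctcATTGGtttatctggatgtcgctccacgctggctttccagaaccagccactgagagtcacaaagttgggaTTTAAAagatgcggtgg
Cdc20 (chr4:118437344-118437443, minus strand): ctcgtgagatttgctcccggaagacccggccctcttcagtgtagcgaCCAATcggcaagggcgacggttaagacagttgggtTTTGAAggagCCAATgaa
Ube2c (chr2:164769829-164769928, plus strand): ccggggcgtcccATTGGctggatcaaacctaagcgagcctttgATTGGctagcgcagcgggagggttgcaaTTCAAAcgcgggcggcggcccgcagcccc
In these 6 the CHR match nearest upstream of the start began 15 to 29 bases before it, and Cdk1 and Plk1 have another, 71 and 89 bases before it. Each has at least 1 CCAAT match in the stretch shown. These 6 did not respond alike at P14, where Cdc20 (0.74) and Top2a (0.58) were higher in hyperoxia and Cdk1 (0.32), Plk1 (0.19), Cenpa (0.04) and Ube2c (0.04) did not pass the test. All 6 were higher in hyperoxia at P29, from 0.86 for Plk1 to 2.69 for Top2a. The 28 members with a CHR match in a window had a median P29 difference of 1.92 and the 8 without one a median of 1.67, and the medians of the difference of effects were 1.37 and 1.28. Both are descriptions. A match shows the letters, not binding, and RefSeq starts are not unique: for 34 members with a single window, 20 starts equalled the one in the gene table.

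**Figure D4:**
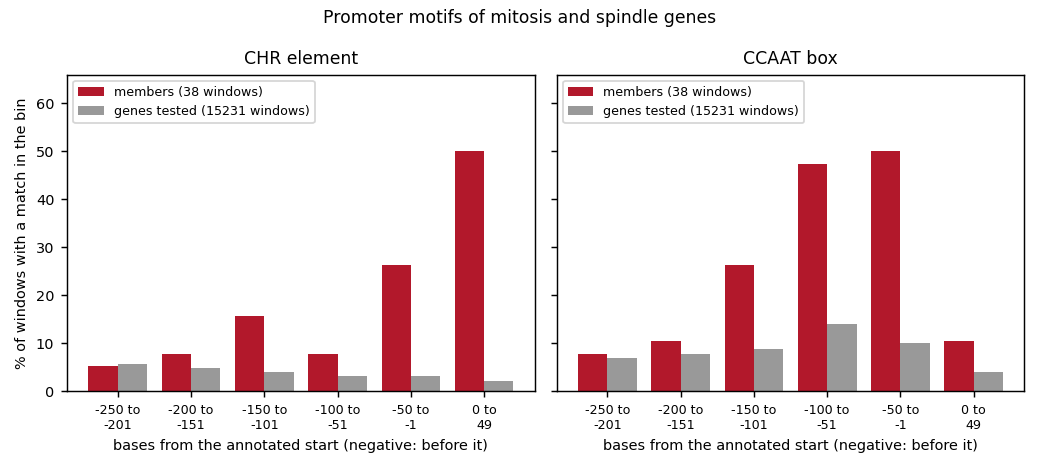
Bars give the share of promoter windows (vertical axis, percent) with a CHR match (left) or a CCAAT match (right) beginning in each 50-base bin around the annotated start (horizontal axis, negative before it), for 38 windows of members (red) and 15231 windows of genes tested (grey). CHR bars of members are highest in the bin from the start onward (19 of 38 windows) and CCAAT bars in the 2 bins before it (18 and 19 windows).

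Ki-67 (Mki67), which coats mitotic chromosomes and is the usual marker of cycling cells, had levels of 9.80 and 10.19 in P14 room air, 10.63, 11.02 and 10.85 in P14 hyperoxia, 7.50 and 7.44 in P29 room air, and 10.47, 10.47 and 10.39 in P29 hyperoxia. P29 room air stood apart from the other 3 groups, and every hyperoxia array was above every room-air array. Mki67 was higher in hyperoxia by 0.84 ± 0.13 (adjusted p = 0.000308) at P14 and by 2.97 ± 0.13 (adjusted p = 6.17e-08) at P29, which is 1.79-fold and 7.84-fold. The effects differed by 2.14 ± 0.18 (adjusted p = 2.84e-05). Topoisomerase II alpha (Top2a), which unlinks sister DNA before anaphase, read 9.43 and 9.82 in P14 room air, 9.99, 10.44 and 10.19 in P14 hyperoxia, 7.25 and 6.96 in P29 room air, and 9.76, 9.86 and 9.76 in P29 hyperoxia. Its arrays fell into the same order of groups with no overlap between exposures at either age. Top2a was higher by 0.58 ± 0.15 (adjusted p = 0.00619) at P14 and 2.69 ± 0.15 (adjusted p = 2.54e-07) at P29, a difference of effects of 2.11 ± 0.21 (adjusted p = 6.78e-05). In room air both genes fell with age by similar amounts, Mki67 changing by -2.52 ± 0.14 and Top2a by -2.52 ± 0.16. In hyperoxia the changes were -0.39 ± 0.12 (adjusted p = 0.0276) and -0.41 ± 0.13 (adjusted p = 0.0379).

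The group of Cdk1, its cyclins and their activator was the most divided at P14, where 1 of 6 measured members rose and the median was 0.25. At P29 5 rose and 1 fell. Cdk1, the kinase that starts mitosis, read 8.98 and 9.21 in P14 room air, 9.22, 9.55 and 9.48 in P14 hyperoxia, 6.65 and 6.12 in P29 room air, and 8.89, 8.98 and 8.83 in P29 hyperoxia. The hyperoxia arrays at P14 were all above room air, the lowest by a narrow margin, and at P29 the groups were far apart. Its P14 difference was 0.32 ± 0.15 (adjusted p = 0.0874), short of the threshold, and at P29 it was higher by 2.52 ± 0.15 (adjusted p = 4.43e-07), or 5.72-fold. The difference of effects, 2.19 ± 0.21 (adjusted p = 6.3e-05), was among the largest of the members.

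Cyclin A2 (Ccna2), which works in S phase and G2, read 8.98 and 9.30 in P14 room air, 9.86, 10.15 and 10.06 in P14 hyperoxia, 6.86 and 6.25 in P29 room air, and 9.45, 9.41 and 9.41 in P29 hyperoxia. It was the member of this group that rose at P14, by 0.88 ± 0.16 (adjusted p = 0.00091), and it rose by 2.87 ± 0.16 (adjusted p = 2.96e-07) at P29. A Ccna2 probe set of nearly the same brightness (mean level 8.67 against 8.97) had a P14 difference of -0.12 ± 0.14 and rose by 1.62 ± 0.14 at P29. The P14 call thus depends on the probe set read. Cyclin B2 (Ccnb2), the measured B-type partner of Cdk1, had a P14 difference of -0.10 ± 0.14 (adjusted p = 0.59) with overlapping arrays and rose by 1.58 ± 0.14 (adjusted p = 6.59e-06) at P29. The Cdk-binding subunit Cks2 (0.33 ± 0.17 (adjusted p = 0.114)) and cyclin F (Ccnf, 0.17 ± 0.15 (adjusted p = 0.337)), a ubiquitin ligase subunit, also did not pass at P14. At P29 they rose by 1.86 ± 0.17 and 0.87 ± 0.15.

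Foxm1, the forkhead factor that activates many genes of this list in G2, was the exception. It read 7.43 and 7.33 in P14 room air, 7.03, 7.22 and 7.23 in P14 hyperoxia, 7.24 and 7.32 in P29 room air, and 6.89, 6.92 and 7.0 in P29 hyperoxia. The 10 values lay close together, and the hyperoxia arrays were below the room-air arrays at both ages. The P14 difference was -0.22 ± 0.09 (adjusted p = 0.0517) and the P29 difference, which passed the test, was -0.34 ± 0.09 (adjusted p = 0.00589). With age it changed by -0.10 ± 0.10 (adjusted p = 0.436) in room air. The call rests on the choice of probe set: a dimmer Foxm1 probe set (mean level 5.92 against 7.16) had a P29 difference of 0.49 ± 0.14 (adjusted p = 0.0139 over all probe sets tested) and fell by 0.97 in room air with age, as most members did, while the other one had a P29 difference of -0.20 ± 0.11.

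Among the mitotic kinases 3 of 4 rose at P14 and all 4 at P29. Polo-like kinase 1 (Plk1), which acts at centrosomes, kinetochores and the midzone, read 7.44 and 7.74 in P14 room air, 7.70, 7.97 and 7.68 in P14 hyperoxia, 6.36 and 6.38 in P29 room air, and 7.35, 7.18 and 7.16 in P29 hyperoxia. The P14 groups overlapped and the P29 groups did not. Its differences were 0.19 ± 0.12 (adjusted p = 0.173) at P14 and 0.86 ± 0.12 (adjusted p = 9.79e-05) at P29, with a difference of effects of 0.66 ± 0.16 (adjusted p = 0.0139). Aurora A (Aurka), the kinase of the spindle poles, read 7.95 and 8.11 in P14 room air, 8.33, 8.50 and 8.38 in P14 hyperoxia, 6.35 and 5.86 in P29 room air, and 7.69, 7.71 and 7.75 in P29 hyperoxia. All hyperoxia arrays were above room air of the same age. Aurka rose by 0.38 ± 0.13 (adjusted p = 0.0262) and 1.61 ± 0.13 (adjusted p = 2.3e-06), and the effects differed by 1.24 ± 0.18 (adjusted p = 0.000664). Melk, a kinase found in proliferating progenitors and many tumours, read 6.95 and 7.33 in P14 room air, 7.86, 8.05 and 7.98 in P14 hyperoxia, 4.93 and 4.64 in P29 room air, and 7.79, 7.54 and 7.59 in P29 hyperoxia. Its P29 room-air levels were below the filter value of 5 on both arrays, so the size of its P29 rise, 2.85 ± 0.13 (adjusted p = 9.61e-08), is less sure than its direction. At P14 Melk rose by 0.82 ± 0.13 (adjusted p = 0.000381). Nek2, which splits the centrosomes, rose by nearly the same amount at both ages (1.02 ± 0.13 (adjusted p = 8.29e-05) and 1.23 ± 0.13 (adjusted p = 1.56e-05)) and did not pass for age in room air (-0.33 ± 0.14 (adjusted p = 0.0803)).

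The chromosomal passenger complex, which corrects wrong kinetochore attachments and then moves to the midzone, had 3 of 4 members higher at P14 and 4 at P29. Survivin (Birc5) read 7.79 and 8.12 in P14 room air, 8.47, 8.95 and 8.82 in P14 hyperoxia, 5.51 and 4.97 in P29 room air, and 8.31, 8.34 and 8.27 in P29 hyperoxia. The 2 P29 room-air arrays stood well below the other 8. Birc5 had the largest P29 rise of all members, 3.06 ± 0.17 (adjusted p = 2.96e-07) or 8.37-fold, rank 18 of 14988 genes, and the largest fall with age in room air, -2.72 ± 0.19 (adjusted p = 9.5e-07). At P14 it rose by 0.79 ± 0.17 (adjusted p = 0.00266), and the effects differed by 2.28 ± 0.24 (adjusted p = 0.000112), the largest difference in the list. In hyperoxia its change with age was -0.44 ± 0.15 (adjusted p = 0.0541), short of the threshold although the arrays of the 2 ages did not overlap.

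Incenp, the scaffold of the complex, read 9.03 and 9.44 in P14 room air, 10.14, 10.49 and 10.33 in P14 hyperoxia, 8.26 and 8.13 in P29 room air, and 10.22, 10.18 and 9.87 in P29 hyperoxia. Its hyperoxia arrays stood above room air at both ages. Incenp had the largest P14 rise of all members, 1.08 ± 0.15 (adjusted p = 0.000135), and a P29 rise of 1.89 ± 0.15 (adjusted p = 2.13e-06), with a difference of effects of 0.81 ± 0.21 (adjusted p = 0.0164). Dimmer Incenp probe sets (mean levels 7.39, 5.88 and 4.83 against 9.61) read 0.39, 0.54 and -0.66 at P14. The P14 value thus depends on the probe set read. Borealin (Cdca8), which binds survivin, rose by 1.07 ± 0.15 and 2.55 ± 0.15. Dimmer Cdca8 probe sets (mean levels 7.85 and 6.19 against 8.205) read 0.55 and 0.29 at P14, and 1.91 and 1.57 at P29. The catalytic subunit Aurora B (Aurkb) read 7.25 and 7.36 in P14 room air, 7.26, 7.32 and 7.04 in P14 hyperoxia, 5.36 and 5.23 in P29 room air, and 6.66, 6.50 and 6.64 in P29 hyperoxia. Its P14 groups overlapped and its P29 groups did not. The P14 difference was -0.10 ± 0.10 (adjusted p = 0.431) and the P29 rise 1.30 ± 0.10 (adjusted p = 2.13e-06), with a difference of effects of 1.40 ± 0.14 (adjusted p = 8.43e-05). A second, dimmer Aurkb probe set (mean level 5.80 against 6.66) rose at P14 by 0.51 ± 0.11 (adjusted p = 0.00334), so the P14 value depends on which of the 2 is read, while both rose at P29.

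Of the spindle checkpoint genes 3 of 4 rose at P14 and 4 at P29. The kinase Bub1 read 7.86 and 8.22 in P14 room air, 8.22, 8.81 and 8.46 in P14 hyperoxia, 6.06 and 5.59 in P29 room air, and 7.96, 7.95 and 7.89 in P29 hyperoxia. At P14 the lowest hyperoxia array was just under the higher room-air array, and at P29 the groups were far apart. Bub1 rose by 0.45 ± 0.18 (adjusted p = 0.0483) at P14, close to the threshold, and by 2.11 ± 0.18 (adjusted p = 3.78e-06) at P29, with a difference of 1.65 ± 0.25 (adjusted p = 0.000908). Mps1 (Ttk), the kinase that starts checkpoint signalling, read 6.53 and 6.84 in P14 room air, 7.09, 7.15 and 7.25 in P14 hyperoxia, 4.61 and 4.16 in P29 room air, and 6.64, 6.90 and 6.77 in P29 hyperoxia. Both P29 room-air arrays were under the filter value of 5. Ttk rose by 0.48 ± 0.14 (adjusted p = 0.0138) and 2.38 ± 0.14 (adjusted p = 4.14e-07), and the effects differed by 1.90 ± 0.20 (adjusted p = 9.9e-05). Mad2 (Mad2l1), which holds Cdc20 inactive, rose by 0.65 ± 0.11 and 1.44 ± 0.11. BubR1 (Bub1b), its partner in the checkpoint complex, had a P14 difference of -0.15 ± 0.10 (adjusted p = 0.224) and rose by 0.65 ± 0.10 at P29. The size of that rise depends on the probe set read, since another one for Bub1b (mean level 6.83 against 7.28) rose by 1.73 ± 0.15 (adjusted p = 9.44e-06).

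Among the centromere and kinetochore genes 5 of 6 rose at P14 and all 6 at P29. CENP-A (Cenpa), the histone H3 variant that marks the centromere, read 8.49 and 8.67 in P14 room air, 8.49, 8.74 and 8.64 in P14 hyperoxia, 6.67 and 6.42 in P29 room air, and 7.67, 7.83 and 7.71 in P29 hyperoxia. The P14 groups overlapped, and the P29 hyperoxia arrays lay between P14 and P29 room air. Its differences were 0.04 ± 0.11 (adjusted p = 0.744) at P14 and 1.19 ± 0.11 (adjusted p = 6.3e-06) at P29, and they differed by 1.15 ± 0.15 (adjusted p = 0.000406). CENP-F (Cenpf), a large protein of the outer kinetochore, read 7.89 and 8.22 in P14 room air, 8.50, 8.69 and 8.63 in P14 hyperoxia, 5.69 and 5.13 in P29 room air, and 7.86, 7.88 and 7.73 in P29 hyperoxia. It showed no overlap of exposures at either age. Cenpf rose by 0.55 ± 0.15 (adjusted p = 0.00983) and 2.41 ± 0.15 (adjusted p = 5.73e-07), a difference of 1.86 ± 0.21 (adjusted p = 0.000174). Spc25, a subunit of the microtubule-binding Ndc80 complex, read 8.20 and 8.63 in P14 room air, 8.93, 9.22 and 9.10 in P14 hyperoxia, 6.08 and 5.46 in P29 room air, and 8.53, 8.55 and 8.43 in P29 hyperoxia. Its P29 room-air arrays were again the lowest by a wide margin. Spc25 rose by 0.67 ± 0.17 (adjusted p = 0.00708) and 2.73 ± 0.17 (adjusted p = 6.1e-07), a difference of 2.06 ± 0.25 (adjusted p = 0.000217). The 2 other measured subunits of that complex moved less at P29, Ndc80 by 0.94 ± 0.15 and Nuf2 by 1.49 ± 0.16, though the 3 work as one complex. Cenpe, a kinesin that moves chromosomes to the spindle equator, rose by 0.60 ± 0.12 and 1.97 ± 0.12.

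Of the motors and spindle proteins 4 of 5 rose at P14 and 5 at P29. MCAK (Kif2c), a kinesin that takes microtubule ends apart, read 7.10 and 7.57 in P14 room air, 8.14, 8.43 and 8.37 in P14 hyperoxia, 5.33 and 5.48 in P29 room air, and 7.60, 7.61 and 7.61 in P29 hyperoxia. The P29 room-air arrays were lowest, and no exposures overlapped at the same age. Kif2c rose by 0.97 ± 0.13 (adjusted p = 0.000138) at P14 and by 2.20 ± 0.13 (adjusted p = 4.5e-07) at P29, a difference of 1.23 ± 0.19 (adjusted p = 0.000908). Its direction depends on the probe set read. A dimmer one (mean level 6.75 against 7.32) was lower at both ages, by -0.74 ± 0.12 and -0.38 ± 0.12. Another (6.41) read 0.06 ± 0.16 and 0.72 ± 0.16. Nusap1, which bundles spindle microtubules, read 8.68 and 8.84 in P14 room air, 8.93, 9.43 and 9.23 in P14 hyperoxia, 6.69 and 6.27 in P29 room air, and 8.57, 8.62 and 8.60 in P29 hyperoxia. Its P14 groups were close but apart. Nusap1 rose by 0.44 ± 0.15 (adjusted p = 0.0268) and 2.11 ± 0.15 (adjusted p = 1.14e-06), a difference of 1.67 ± 0.21 (adjusted p = 0.000289). Tpx2, the activator of Aurora A on the spindle, rose by 0.71 ± 0.17 and 2.04 ± 0.17, and Hmmr, a spindle assembly factor that was first known as a hyaluronan receptor, by 0.56 ± 0.16 and 1.40 ± 0.16. Dimmer Tpx2 probe sets (mean levels 6.20, 6.04 and 5.99 against 7.525) read 0.57, -0.77 and -0.42 at P14 and 1.68, -0.68 and -0.65 at P29. The direction for Tpx2 thus depends on the probe set read. Eg5 (Kif11), the kinesin that pushes the poles apart, did not pass at P14 (0.30 ± 0.13 (adjusted p = 0.0605)) and rose by 0.92 ± 0.13 at P29. A Kif11 probe set of nearly the same brightness (mean level 6.45 against 6.65) rose by 0.50 ± 0.12 (adjusted p = 0.00702) and 2.27 ± 0.12. A dimmer one (5.37) read -0.52 ± 0.13 (adjusted p = 0.00697) at P14 and 0.36 ± 0.13 at P29. The P14 result for Kif11 thus depends on the probe set read.

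Of the cytokinesis genes 5 of 6 rose at P14 and all 6 rose at least 2-fold at P29. Ect2, the exchange factor that switches on RhoA at the cleavage furrow, read 7.98 and 8.33 in P14 room air, 8.65, 8.83 and 8.86 in P14 hyperoxia, 5.77 and 5.59 in P29 room air, and 8.48, 8.54 and 8.66 in P29 hyperoxia. P29 room air stood alone at the bottom, and the 2 hyperoxia groups overlapped. Ect2 rose by 0.63 ± 0.12 (adjusted p = 0.00101) at P14 and by 2.88 ± 0.12 (adjusted p = 3.75e-08) at P29, and its difference of effects was 2.25 ± 0.16 (adjusted p = 1.19e-05), the smallest p of the list. In room air it changed with age by -2.47 ± 0.13 (adjusted p = 1.54e-07), and in hyperoxia the change was -0.22 ± 0.10 (adjusted p = 0.148). Prc1, which crosslinks midzone microtubules, read 8.42 and 8.66 in P14 room air, 8.92, 9.19 and 8.98 in P14 hyperoxia, 6.57 and 6.35 in P29 room air, and 8.55, 8.47 and 8.51 in P29 hyperoxia. Its exposures did not overlap at either age. Prc1 rose by 0.49 ± 0.11 (adjusted p = 0.00285) and 2.05 ± 0.11 (adjusted p = 2.22e-07), a difference of 1.56 ± 0.15 (adjusted p = 6.78e-05). Of the centralspindlin subunits, the kinesin Kif23 rose by 0.68 ± 0.13 at P14 and its partner Racgap1 had a difference of -0.15 ± 0.12 (adjusted p = 0.283). A Racgap1 probe set of nearly the same brightness (mean level 7.28 against 7.35) rose at P14 by 0.44 ± 0.14 (adjusted p = 0.0246), so that value depends on the probe set read. At P29 they rose by 1.65 ± 0.13 and 1.21 ± 0.12. The midzone kinesin Kif20a rose by 0.50 ± 0.15 and 2.24 ± 0.15 and anillin (Anln), which ties the furrow to the membrane, by 0.56 ± 0.14 and 1.94 ± 0.14.

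The condensin genes had the smallest median of the roles at P29, 1.14. Smc2 and Smc4 are the ATPases of both condensin complexes and Ncaph the clasp of condensin I. Smc2 read 8.75 and 8.92 in P14 room air, 9.42, 9.69 and 9.45 in P14 hyperoxia, 7.37 and 7.54 in P29 room air, and 9.21, 9.15 and 9.14 in P29 hyperoxia. Its exposures did not overlap at either age. Smc2 rose by 0.68 ± 0.10 (adjusted p = 0.000245) and 1.71 ± 0.10 (adjusted p = 4.18e-07), a difference of 1.03 ± 0.14 (adjusted p = 0.000536). Smc4 read 9.74 and 10.02 in P14 room air, 10.18, 10.37 and 10.22 in P14 hyperoxia, 9.27 and 9.40 in P29 room air, and 10.26, 10.12 and 10.08 in P29 hyperoxia. P29 room air was lowest by less than 1 log2 unit, and the 2 hyperoxia groups overlapped. Smc4 rose by 0.38 ± 0.11 (adjusted p = 0.0109) and 0.82 ± 0.11 (adjusted p = 7.12e-05), but the difference of effects, 0.44 ± 0.15 (adjusted p = 0.0549), did not pass. Ncaph read 9.26 and 9.53 in P14 room air, 9.48, 9.86 and 9.62 in P14 hyperoxia, 8.06 and 7.91 in P29 room air, and 9.11, 9.16 and 9.10 in P29 hyperoxia. Its P14 groups overlapped and its P29 groups did not. Ncaph differed by 0.26 ± 0.12 (adjusted p = 0.0849) at P14 and rose by 1.14 ± 0.12 (adjusted p = 1.57e-05) at P29, a difference of 0.89 ± 0.17 (adjusted p = 0.00334).

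Cdc20, Ube2c and Cdca3 lead out of and into mitosis. Cdc20, the activator of the anaphase promoting complex, read 9.73 and 10.26 in P14 room air, 10.63, 10.88 and 10.69 in P14 hyperoxia, 7.99 and 7.49 in P29 room air, and 10.18, 10.16 and 10.02 in P29 hyperoxia. No exposures overlapped at the same age. Cdc20 rose by 0.74 ± 0.17 (adjusted p = 0.00338) and 2.38 ± 0.17 (adjusted p = 1.17e-06), a difference of 1.64 ± 0.24 (adjusted p = 0.000693). Dimmer Cdc20 probe sets (mean levels 8.82 and 7.45 against 9.80) read -0.02 ± 0.12 and 0.07 ± 0.12 at P14. At P29 they rose by 1.60 ± 0.12 and 0.54 ± 0.12, so the P14 call depends on the probe set read. Ube2c, the ubiquitin-conjugating enzyme of that complex, read 9.06 and 9.42 in P14 room air, 9.12, 9.37 and 9.36 in P14 hyperoxia, 7.03 and 6.47 in P29 room air, and 8.61, 8.69 and 8.63 in P29 hyperoxia. At P14 the hyperoxia arrays lay between the room-air arrays, and at P29 the groups were far apart. Its P14 difference was 0.04 ± 0.16 (adjusted p = 0.831) and its P29 rise 1.89 ± 0.16 (adjusted p = 3.3e-06), a difference of 1.85 ± 0.22 (adjusted p = 0.00022). Cdca3, which promotes the loss of the Cdk1 inhibitor Wee1, had a P14 difference of 0.43 ± 0.18 (adjusted p = 0.0585) and rose by 1.51 ± 0.18 at P29.

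For 26 members the array also carries dimmer probe sets, 44 in all, with a median level of 6.10 against 8.02 for the brightest ones of the same genes. They differed in sign from the brightest most often at P14, and they bear on the size of the difference of effects as well. At P14, 26 of the 44 had the sign of the brightest probe set and 18 the opposite sign, and their median was 0.19. Of the 44, 14 were higher, near the share of all genes read by their brightest probe sets (32.3%), and 5 lower (22.8%). At P29, 36 had the same sign, 29 were higher (34.2% of all genes) and 4 lower (25.6%), and the median was 0.75. In room air 43 of 44 had the sign of the brightest with age, 34 of them passing the test as lower (19.1% of all genes). For the difference of effects 38 of 44 had the sign of the brightest. Of the 44, 16 passed as larger at P29 (11.0% of all genes) and 0 in the other direction (11.6%). Their median there was 0.42, with a range from -0.25 to 2.01, against 1.37 for the 43 members by their brightest probe sets. At P14 the brightest and another probe set of one gene read 0.88 and -0.12 for Ccna2, 0.74 and -0.02 for Cdc20, and 1.08 and -0.66 for Incenp. They read 0.30 and -0.52 for Kif11, 0.97 and -0.74 for Kif2c, and 0.71 and -0.77 for Tpx2. In the other direction they read -0.10 and 0.51 for Aurkb, -0.15 and 0.24 for Bub1b and -0.15 and 0.44 for Racgap1. The opposite calls at P29 came from 1 probe set of Incenp (-0.33), 1 of Kif2c (-0.38) and 2 of Tpx2 (-0.68 and -0.65), which were lower, and from 1 of Foxm1 (0.49), which was higher. Another 12 had the same sign at P29 but a value over 1 away from the brightest, larger for Bub1b and Kif11 (2.27 against 0.92) and smaller for the other 10. Whether these probe sets read the same transcripts was not tested.

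**Figure D5:**
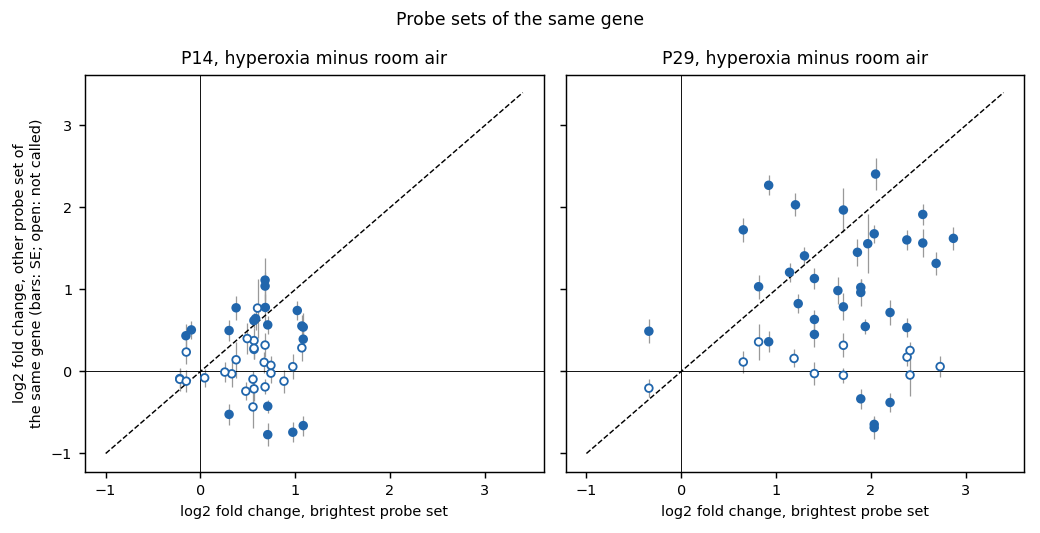
Each point is 1 of 44 dimmer probe sets of 26 members, placed by the log2 fold change of hyperoxia against room air of the gene's brightest probe set (horizontal axis) and by its own (vertical axis, bars of 1 SE, open where not called), at P14 (left) and P29 (right), with a dashed line of equality. At P14 the points lie on both sides of 0 on the vertical axis (18 of 44 opposite in sign to the brightest), and at P29 most lie above 0 and below the line.

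Other genes of the pathway, listed by name, were read the same way. Of 74 further mitosis genes 42 were higher (32.3% of all genes) and 11 lower (22.8%) in hyperoxia at P14, at a median of 0.39. At P29 57 were higher (34.2%) and 9 lower (25.6%), at a median of 0.92. The effects differed for 41, all towards P29 (11.0%). Psrc1, a spindle protein, rose by 1.83 ± 0.20 (adjusted p = 3.65e-05) and 4.80 ± 0.20 (adjusted p = 4.64e-08), more than any member. Sororin (Cdca5), which keeps sister chromatids joined, rose by 3.27 ± 0.16 (adjusted p = 1.27e-07) at P29 and Aspm, a spindle pole protein, by 2.26 ± 0.11 (adjusted p = 1.37e-07). A further 15 genes of the anaphase promoting complex, which resting cells also need, were listed, among them its activator Fzr1. Their counts were near those of all genes at P14, with 5 higher (32.3% of all genes) and 4 lower (22.8%), Fzr1 included. At P29 7 were higher (34.2%) and 2 lower (25.6%), and for 2 the effect was larger at P29 (11.0%). Their medians were 0.03 and 0.09. In room air 10 of the 15 fell with age (19.1% of all genes), at a median of -0.34.

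The genes of the G1/S transition and of DNA replication, which act before mitosis, were set beside the members. Of 27 measured, 15 were higher (32.3% of all genes) and 1 lower (22.8%) in hyperoxia at P14, at a median of 0.39. At P29 25 were higher (34.2%) and 0 lower (25.6%), at a median of 1.29. For 23 the effect was larger at P29 (11.0%). In room air 24 fell with age (19.1% of all genes). In hyperoxia with age 4 of the 27 rose, a share close to the 15.4% of all genes that did, and 0 fell, where 11.7% of all genes and 33 of the 43 members fell. Their median was 0.13. The replication genes that rose were the origin licensing factor Cdc6 (0.70 ± 0.15 (adjusted p = 0.00544)), the activator E2f1 (0.39 ± 0.11 (adjusted p = 0.0192)), and the helicase subunits Mcm5 (0.39 ± 0.13 (adjusted p = 0.0408)) and Mcm4 (0.23 ± 0.08 (adjusted p = 0.0414)). The difference between this list and the members was not tested.

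Markers of other tissues with dividing cells were read beside these results. Of all genes, 32.3% were higher and 22.8% lower in hyperoxia at P14, and 34.2% and 25.6% at P29. With age in room air 22.2% of all genes rose and 19.1% fell, and in hyperoxia 11.7% fell. Of 8 measured markers of thymus and lymphoid progenitors 6 were lower in hyperoxia at P14 and 6 at P29, none higher (Rag1 and Lck were not measured), and their summed linear level was 555 to 596 in P14 room air, 391 to 425 in P14 hyperoxia, 859 to 873 in P29 room air and 446 to 466 in P29 hyperoxia. The defining genes Ptcra, Rag2 and Dntt stayed at or under 6.08 on every array. Of 4 measured markers of red cell precursors 3 were lower at P14 and 2 at P29, none higher. Their summed level was 2862 to 3463 in P14 room air, 1539 to 1796 in P14 hyperoxia, 1106 to 2181 in P29 room air and 614 to 842 in P29 hyperoxia. With age 2 of the 4, Slc4a1 and Alas2, fell in room air and 2 in hyperoxia, the direction of the members, and the part of red cell precursors in the members' fall was not tested. Of the thymus markers 5 rose with age in room air and none fell. Of 6 heart muscle genes 4 were higher at P14, and 1 was higher and 3 lower at P29. Their summed level was 5700 to 6680 in P14 room air, 9330 to 10448 in P14 hyperoxia, 11601 to 14559 in P29 room air and 6863 to 11481 in P29 hyperoxia, so heart RNA moved with the exposure, and its part in the P14 differences was not tested. Of 3 measured skeletal muscle genes 1 was higher at P14 and 1 lower at P29.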

How the data were processed

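Lung RNA of 10 samples was hybridised to Affymetrix mouse arrays. The authors deposited log2 expression values, made with GCRMA in Partek 6.4 per the submitters' processing notes. GCRMA corrects background by probe sequence, scales arrays to one distribution and summarises probes, so low values are drawn together. The values ran from 2.51 to 15 and were used as deposited. Of 45101 probe sets 34945 had 1 symbol, 932 several and 9211 none in the platform annotation (13 control probe sets were left out). The brightest probe set stood for a gene if its log2 level was 5 or more on at least 2 arrays, which kept 14988 of 18193 genes.

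Groups came from the titles. limma 3.58.1 in R 4.3.3 (lmFit, eBayes, 10 arrays, 4 group means, 6 residual and 5.09 prior degrees of freedom) tested 5 contrasts across all genes, two-sided, with Benjamini-Hochberg adjustment and a threshold of 0.05. Tables were made with Python 3.11.15 and pandas 2.3.3. Data for the P14 contrast of 14988 genes were simulated with independent noise, 100 genes changed by 0.5 and 100 by 1 (log2). Of these changes 57% and 95% were called, with 11 false among 163 calls. Far more genes were called in the real data, where arrays also vary together, so these rates need not carry over. Same-numbered arrays did not deviate together (2 of 13 pairs over 0.1). Named in full were, per role, the 2 members with the smallest p of the difference of effects, 5 measured landmarks (Mki67, Cdk1, Plk1, Foxm1, Cdc20), and the extremes of each contrast. Alternatives covered filters, probe sets, scaling, variance model, array weights, covariates and left-out arrays. Members and lists were chosen with earlier results of these data known.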

Additional observations from a re-analysis of the deposited data

Results flagged for a closer look

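The effect of hyperoxia on 39 of the 43 members differed between P14 and P29 by the test of the difference itself in limma, in each case towards a larger value at P29. Age and sex cannot be told apart in this difference, since the P14 arrays and the P29 room-air arrays had opposite sex patterns. Some members described in full had a difference of effects of 1.5 or more on the log2 scale: Birc5 2.28, Ect2 2.25, Cdk1 2.19, Mki67 2.14, Top2a 2.11, Spc25 2.06, Melk 2.03, Ccna2 1.99, Ttk 1.90, Cenpf 1.86, Ube2c 1.85, Nusap1 1.67, Bub1 1.65, Cdc20 1.64 and Prc1 1.56. Others lay below that: Aurkb 1.40, Aurka 1.24, Kif2c 1.23, Cenpa 1.15, Smc2 1.03, Ncaph 0.89, Incenp 0.81 and Plk1 0.66. All these values are of the brightest probe sets. Of the 44 dimmer probe sets of 26 members 16 passed for this difference (11.0% of all genes), at a median of 0.42. No outlier test was run on groups of 2 and 3 arrays, and fits that left out each array are given in the next section.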

How the results depend on the processing

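The rise at P29, the fall with age in room air and the larger effect at P29 covered 39 to 43, 40 to 42 and 33 to 40 members under the alternatives that were run, and no member passed in the opposite direction except Foxm1 at P29. The count at P14 was less steady. With the actin 3' excess of each array in the fit it fell from 29 to 0 members higher, and over all genes from 4838 to 812. Leaving out each array gave 15 to 32 members higher, the lowest without replicate 1 of P14 room air. The count lower at P14 was 0 and became 1 with a filter at log2 of 6, quantile normalization, 75th percentile scaling or the replicate block, and 0 to 1 when each array was left out. The 1 member lower at P29 became 0 with the mean of all probe sets, with the probe set of largest variance and with the actin term. The 33 members lower with age in hyperoxia became 9 with replicate 2 as the only P29 hyperoxia array, 23 with the level of Y-linked genes as a term, and 18 to 32 when each array was left out. With the probe set of largest variance Aurkb at P14 (0.51, adjusted p = 0.0031) and Foxm1 at P29 (0.49, adjusted p = 0.0128) changed sign. The numbers of the titles do not pair the arrays. With the replicate block 27 members were higher at P14 (4645 of 14988 genes) and 42 at P29 (4935 genes). The effect was larger at P29 for 38 members (1577 genes). With age 41 members were lower in room air (2841 genes) and 28 in hyperoxia (1706 genes). For the members described in full, 2205 results under an alternative kept direction and threshold, 112 lost the threshold, 31 gained it and 2 changed sign. Of the medians 88 stayed and 6 moved by more than the spread between arrays. With 2 room-air arrays an age, precision is limited by the number of arrays, and levels near 5 on the P29 room-air arrays (2 and 4 members under it) make the largest folds unsure. A fit of only the groups compared equals the one given for the difference of effects and was not run apart.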

Other observations

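Within each group 1 array tended to be the highest for most members. Replicate 2 of P14 room air was the higher of the pair for 40 of 43 members (59.9% of all genes tested), replicate 2 of P14 hyperoxia was the highest of 3 for 38 (30.6%), replicate 1 of P29 room air for 35 (49.3%) and replicate 2 of P29 hyperoxia for 26 (40.6%). The members thus varied together between arrays of one group as well as between groups. Their median SD within a group was 0.20 in P14 room air, 0.15 in P14 hyperoxia, 0.24 in P29 room air and 0.082 in P29 hyperoxia.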
